A study of Caenorhabditis elegans with 6 samples.

Results

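The 10 genes described here encode the sensors, transcription factors and main lumenal chaperones of the unfolded protein response of the endoplasmic reticulum (ER) in Caenorhabditis elegans. They were taken by name, through their WormBase gene identifiers, and make up 10 of the 46940 features in the count table. All 10 passed the filter on low counts, which left 15956 genes for testing. RNA-seq was run on whole worms of the wild-type N2 Bristol strain, in 3 samples at day 10 and 3 at L4, the final larval stage. All samples were untreated and grown at 20 °C on agar plates of nematode growth medium. The labels do not give the event from which day 10 is counted or any means of preventing progeny. The series as used here holds no young adults, so the passage from larva to adult and later ageing cannot be told apart. The labels do not say whether the replicates were separate cultures, and p-values therefore cover only the spread among these libraries, possibly a technical one.

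The ER folds secreted and membrane proteins, and the unfolded protein response matches its folding capacity to its load. In the IRE-1 branch, the membrane sensor IRE-1 cuts the messenger RNA of xbp-1, and the rejoined message encodes an active transcription factor. PEK-1, the worm homologue of PERK, phosphorylates the initiation factor eIF2 alpha and so slows translation, while ATF-6 is a membrane-bound transcription factor released by cleavage. Target genes include ER chaperones, protein disulfide isomerases and the machinery of ER-associated degradation (ERAD), which returns misfolded proteins to the cytosol. In the worm the response is active in the intestine, a highly secretory tissue, and serves development as well as stress.

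The libraries held 19576201 to 23972794 counts at L4 and 23257607 to 25616846 at day 10. Most of the transcriptome differed between the ages: the quasi-likelihood test of edgeR, with Benjamini-Hochberg adjustment at 0.05, called 85.4% of genes tested, 40.5% as higher and 45.0% as lower at day 10. The typical gene tested had a log2 fold change of −0.16 (median). This median moved to 0.00043 when DESeq2's size factors were used and to −0.62 under upper-quartile factors, so the sign of a small change depends on the scaling. The tissue makeup of the RNA also differed. Of 10 germ line and oocyte markers 9 rose and 1 fell, and their summed level was 1756 to 1782 CPM (counts scaled to a common library total) at L4 and 9204 to 12949.8 at day 10. All 10 body wall muscle markers fell, from a sum of 14719.5 to 15837 CPM down to 556.7 to 663.9. Of 9 intestinal markers 7 fell, and the yolk genes vit-2 and vit-6 rose. The sum was 4401 to 4624 CPM at L4 and 9450.3 to 15666 at day 10. Most of the day 10 sum came from vit-2 and vit-6, at means of 6997 and 5690 CPM, against 159 and 194 at L4. The rise of the sum is therefore one of these yolk genes and not of the intestinal markers in general. Of 10 neuronal markers 8 fell and 2 rose, with sums of 408.7 to 426.7 and 386.3 to 430.04 CPM. Of 10 epidermal markers 5 fell and 3 (lin-26, elt-1 and nhr-25) rose, with sums of 2296 to 2563 and 330.8 to 369.6. Most of the epidermal sum at L4 came from bli-1, rol-6 and dpy-7, at means of 1229, 542 and 274 CPM. At day 10 their means were 0.23, 0.081 and 1.12 CPM, so the sum mainly follows these genes. No marker was at 0 counts in all 6 libraries. In whole worms, fewer cells of a type and less RNA per cell cannot be told apart, and the part of tissue makeup in the results that follow was not tested.

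At day 10 the sensor gene ire-1 was 2.46-fold higher than at L4, and the abundant BiP gene hsp-3 was 1.63-fold lower. Both held under each scaling tried. Of all genes tested, 76.5% had a log2 fold change below that of ire-1 and 41.9% one below that of hsp-3. The other 8 of the 10 genes differed by 1.36-fold or less under the main scaling, in either direction. With trimmed mean of M-values (TMM) scaling, 4 of the 10 genes rose (ire-1, atf-6, hsp-4 and pek-1), 3 fell (hsp-3, crt-1 and xbp-1), and 3 did not pass the test (enpl-1, pdi-1 and pdi-3). These 7 calls of 10 stand beside the 85.4% of all genes called (40.5% higher and 45.0% lower). With DESeq2's size factors 6 of the 10 were higher and 2 lower, where 85.7% of all genes were called, 43.3% higher and 42.4% lower. With upper-quartile factors 1 was higher and 7 were lower, where 85.9% of all genes were called, 33.2% higher and 52.7% lower. The log2 fold changes of hsp-4, pek-1, atf-6, enpl-1 and pdi-1 turned negative with the latter, and that of pdi-3 turned positive with the former. The median log2 fold change of the 10 genes was 0.053. For 8 of the 10 the CPM of the L4 and day 10 libraries did not overlap, where this held for 87.6% of all genes tested.

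**Figure D1:**
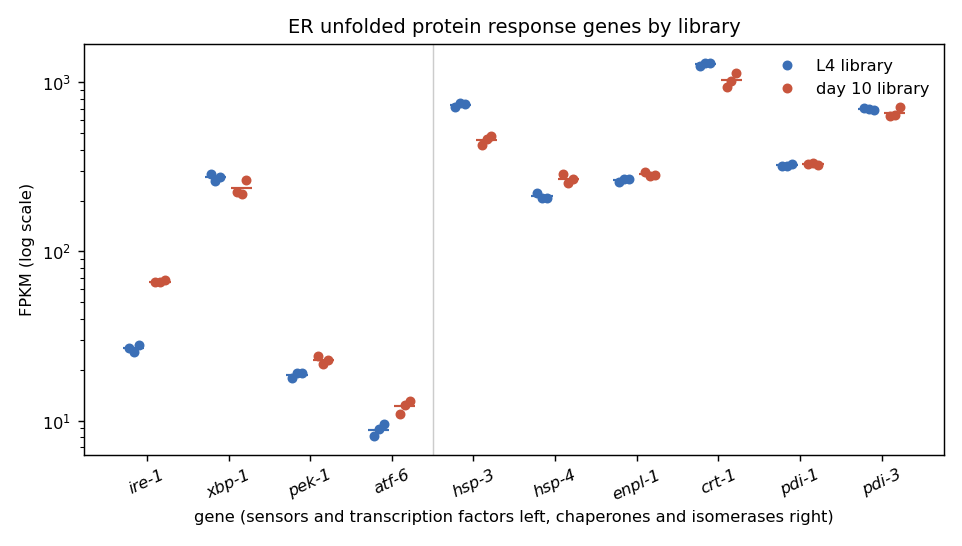
FPKM (the count divided by gene length and library total, log axis) of the 10 genes in each of 6 libraries, L4 in blue and day 10 in red, with the mean of 3 libraries as a line. The day 10 libraries stand at 65.7 to 67.4 FPKM for ire-1 against 25.4 to 27.9 at L4, and at 427.2 to 479.7 against 718.3 to 750.1 for hsp-3.

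Levels per gene length, in the authors' FPKM (counts divided by gene length and library total), spanned a wide range. The calreticulin gene crt-1 was the most abundant of the 10 at both ages, at 1283 ± 33.4 FPKM (mean ± SD, n = 3) in L4 and 1029 ± 97.5 at day 10. At L4 the order below it was hsp-3, pdi-3, pdi-1, xbp-1, enpl-1, hsp-4, ire-1, pek-1 and atf-6. The neighbours xbp-1 and enpl-1 overlapped in that order; each other gene lay wholly above the next. At day 10 pdi-3 stood above hsp-3, and enpl-1, hsp-4 and xbp-1 followed pdi-1 in that order. There enpl-1 overlapped hsp-4 and hsp-4 overlapped xbp-1. The 3 sensor genes were the lowest at both ages. The least abundant, atf-6, was at 8.84 ± 0.70 FPKM in L4, above 45.8% of the genes tested, whereas crt-1 was above 99.2%.

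Of the 10 genes, ire-1 had the largest fold difference between the ages. This gene (WBGene00002147, WBcel235 chromosome II, 8112243 to 8124910, minus strand) stood at 80.6, 78.2 and 84.0 CPM in the L4 libraries and at 202.3, 201.0 and 193.6 CPM in the day 10 libraries. Each day 10 library was thus far above each L4 library. The log2 fold change was 1.30 ± 0.04 (SE), with edgeR's adjusted p = 4.59e-08, and it was higher than for 76.5% of the genes tested. The smallest value under any alternative was 0.85, with upper-quartile factors. Its exons share 4 bases with the opposite-strand gene unc-105.

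The gene xbp-1 (WBGene00006959, chromosome III, 4193809 to 4195358, plus strand), whose message IRE-1 cuts, did not rise. It stood at 396.9, 373.5 and 388.1 CPM at L4 and at 322.5, 311.6 and 352.2 CPM at day 10. The day 10 values were lower without overlap on this scale, by a log2 fold change of −0.23 ± 0.06 (edgeR's adjusted p = 0.0065). That call was lost with DESeq2's size factors, at a log2 fold change of −0.069 and an adjusted p of 0.301, and without day 10 replicate 2, at −0.17 and 0.0513. In FPKM, the highest day 10 library (263.6) lay within the L4 range of 260.7 to 285.2. The FPKM ratio of xbp-1 to ire-1 within a library, which no scaling changes, was 9.93 to 10.6 at L4 and 3.33 to 3.91 at day 10. Gene counts do not separate the cut and rejoined message from the uncut one, so the activity of IRE-1 was not measured.

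The sensor genes pek-1 and atf-6 had smaller log2 fold changes than ire-1. The kinase gene pek-1 (WBGene00003970, chromosome X, 11410176 to 11414887, minus strand) stood at 65.5, 72.2 and 70.4 CPM at L4 and at 91.5, 81.1 and 80.7 CPM at day 10. It rose by a log2 fold change of 0.28 ± 0.07 (edgeR's adjusted p = 0.00481), and fell with upper-quartile factors (−0.17, adjusted p = 0.0367). The gene atf-6 (WBGene00000222, chromosome X, 12480948 to 12484904, plus strand) stood at 19.3, 21.9 and 22.8 CPM at L4 and at 26.7, 30.3 and 30.0 CPM at day 10. For both genes the lowest day 10 library was above the highest L4 library. The rise of atf-6 was 0.44 ± 0.09 on the log2 scale (edgeR's adjusted p = 0.00336), and upper-quartile factors gave −0.0096. Taken per gene length, ire-1 made up 49.4 ± 1.71% of the summed FPKM of ire-1, pek-1 and atf-6 at L4 and 65.5 ± 0.39% at day 10 (mean ± SD, n = 3). The sum itself was 54.2 ± 1.88 FPKM at L4 and 101.4 ± 1.83 at day 10.

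The BiP genes moved in opposite directions. BiP is the HSP70 chaperone of the ER lumen, and the worm has a pair of genes for it: hsp-3, known as the more constitutive, and hsp-4, known to be induced by ER stress through ire-1 and xbp-1. The gene hsp-3 (WBGene00002007, chromosome X, 6089028 to 6092124, minus strand) stood at 1490.1, 1602 and 1549 CPM at L4 and at 909.1, 975.6 and 955.2 CPM at day 10. Its day 10 libraries were all below its L4 libraries, by a log2 fold change of −0.71 ± 0.04 (edgeR's adjusted p = 2.72e-06). A lower log2 fold change was held by 41.9% of the genes tested. The gene hsp-4 (WBGene00002008, chromosome II, 7350112 to 7352645, minus strand) stood at 403.1, 387.3 and 376.8 CPM at L4. At day 10 it stood at 531.7, 468.9 and 469.2 CPM, above L4 in every library. Its log2 fold change was 0.33 ± 0.07 (edgeR's adjusted p = 0.00121), but −0.12 with upper-quartile factors, at an adjusted p of 0.0973.

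The balance between the BiP genes can be read within each library, where scaling plays no part. The FPKM ratio of hsp-4 to hsp-3 was 0.309, 0.276 and 0.278 in the L4 libraries and 0.668, 0.549 and 0.561 in the day 10 libraries. The ratio was 2.06-fold higher at day 10, a log2 difference of 1.04 ± 0.10 (SE). The ages did not overlap, which gives the smallest p that 3 against 3 allows (exact two-sided permutation test, p = 0.10). As a share, hsp-4 supplied 22.3 ± 1.11% of the summed BiP FPKM at L4 and 37.1 ± 2.53% at day 10 (mean ± SD, n = 3), while hsp-3 remained the more abundant of the pair in all 6 libraries. The summed BiP level was 948.2 ± 8.52 FPKM at L4 and 724.7 ± 20.9 at day 10. The lengths behind these FPKM were 2088 bases for hsp-3 and 1828 for hsp-4, where the exons of the Ensembl models span 2666 and 2232; other lengths would scale the ratio alike at both ages. The genes are close paralogues, and how far reads were shared between them was not tested.

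Measured against hsp-1, the constitutive HSP70 of the cytosol, summed BiP was lower at day 10. The FPKM ratio of hsp-3 plus hsp-4 to hsp-1 was 0.847, 0.847 and 0.833 at L4 and 0.451, 0.457 and 0.519 at day 10. This is a log2 difference of −0.83 ± 0.06, again with no overlap between the ages (exact two-sided permutation test, p = 0.10, the smallest possible). The cytosolic gene itself rose by 0.43 ± 0.07 on the log2 scale under TMM scaling, with −0.024 under upper-quartile factors.

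**Figure D2:**
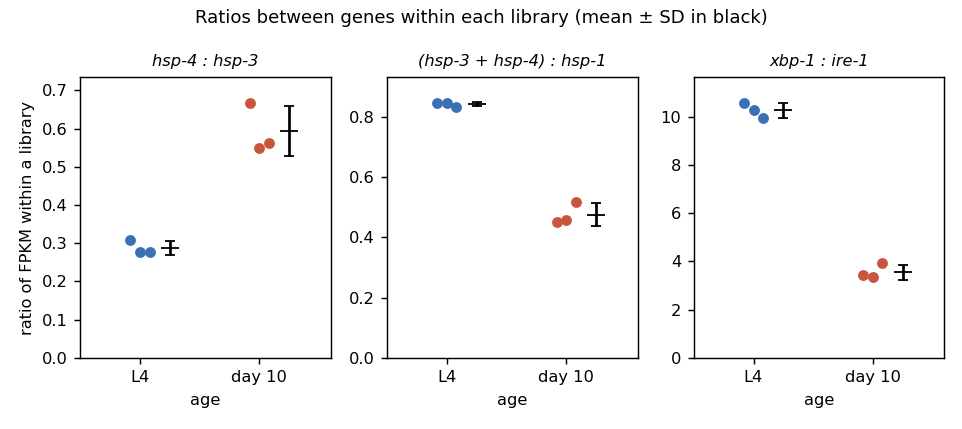
Ratios of FPKM between genes within each library, by age, with 3 libraries an age as points and the mean ± SD in black; each axis starts at 0. The hsp-4 to hsp-3 ratio is higher at day 10 (0.549 to 0.668 against 0.276 to 0.309), and the BiP to hsp-1 and xbp-1 to ire-1 ratios are lower.

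Among the other lumenal chaperones, crt-1 fell and enpl-1 did not pass the test. The gene crt-1 (WBGene00000802, chromosome V, 6098992 to 6100542, minus strand) encodes calreticulin, a calcium-binding chaperone of glycoproteins. It stood at 1739, 1865 and 1840.4 CPM at L4 and at 1347, 1448 and 1519.7 CPM at day 10, with no overlap. The log2 fold change was −0.34 ± 0.06 (edgeR's adjusted p = 0.000849), and it stayed negative and past the threshold under every alternative, the nearest to 0 being −0.17 with DESeq2's size factors. Its exons share 92 bases with the opposite-strand gene smut-1, which held 1410.3 counts a library on average; the sources used here do not give whether reads keep their strand. The gene enpl-1 (WBGene00011480, chromosome IV, 11119298 to 11123155, plus strand) encodes the ER member of the HSP90 family, the homologue of GRP94. It stood at 637.7, 686.3 and 667.4 CPM at L4 and at 746.7, 707.3 and 670.4 CPM at day 10, where the lowest day 10 library lay within the L4 range. Its log2 fold change of 0.093 ± 0.05 did not pass the test (edgeR's adjusted p = 0.170). It passed without day 10 replicate 3 (0.15, adjusted p = 0.0054) and with DESeq2's size factors (0.26). Under upper-quartile factors it was lower (−0.36, adjusted p = 0.000194). Relative to enpl-1, the summed BiP level was 3.58 ± 0.06 at L4 and 2.54 ± 0.12 at day 10, as a ratio of FPKM.

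The protein disulfide isomerases, which form and reshuffle disulfide bonds in secreted proteins, differed little. The gene pdi-1 (WBGene00003962, chromosome III, 3699739 to 3701461, minus strand) stood at 501.0 to 524.4 CPM at L4 and at 488.1 to 539.5 CPM at day 10, so that the day 10 range spanned the L4 range. Its log2 fold change was 0.013 ± 0.05 (edgeR's adjusted p = 0.836). The gene pdi-3 (WBGene00003964, chromosome I, 7015908 to 7020797, minus strand) stood at 1178 to 1219 CPM at L4 and at 1102 to 1166 CPM at day 10. These ranges did not overlap, whereas in FPKM the highest day 10 library (715.9) lay above the L4 range of 688.9 to 703.9. The log2 fold change of −0.090 ± 0.03 did not pass the test (edgeR's adjusted p = 0.126). It did pass without day 10 replicate 3 (−0.094, adjusted p = 0.0364). With upper-quartile factors both genes were lower, at −0.44 and −0.54, and with DESeq2's size factors pdi-1 was higher (0.18, adjusted p = 0.0268).

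A scaling shifts the log2 fold change of every gene by nearly the same amount. Setting the 10 genes against the median of all genes tested therefore takes out nearly all of that shift by construction. Their log2 fold changes relative to that median were 1.46 for ire-1, 0.60 for atf-6, 0.50 for hsp-4, 0.45 for pek-1 and 0.26 for enpl-1. They were 0.18 for pdi-1, 0.074 for pdi-3, −0.068 for xbp-1, −0.17 for crt-1 and −0.54 for hsp-3. Thus ire-1 lay farthest above the typical gene, hsp-3 was the farthest below it, and xbp-1 and pdi-3 lay closest to it. The authors' deposited table was made with a test that the sources used here do not name. In it, 6 of the 10 genes were past an adjusted p of 0.05, as were 54.6% of its 24922 tested features. That number of features equals the number tested here without the filter on low counts, a filter that all 10 genes passed. The 54.6% is therefore not a background of genes at like levels, and the 6 of 10 were not compared with one. Of those 6, ire-1, hsp-4, pek-1, atf-6 and enpl-1 were higher and hsp-3 was lower. The adjusted p of the authors' deposited table was 2.39e-33 for ire-1 and 2.65e-06 for hsp-3, and 0.199 for crt-1.

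**Figure D3:**
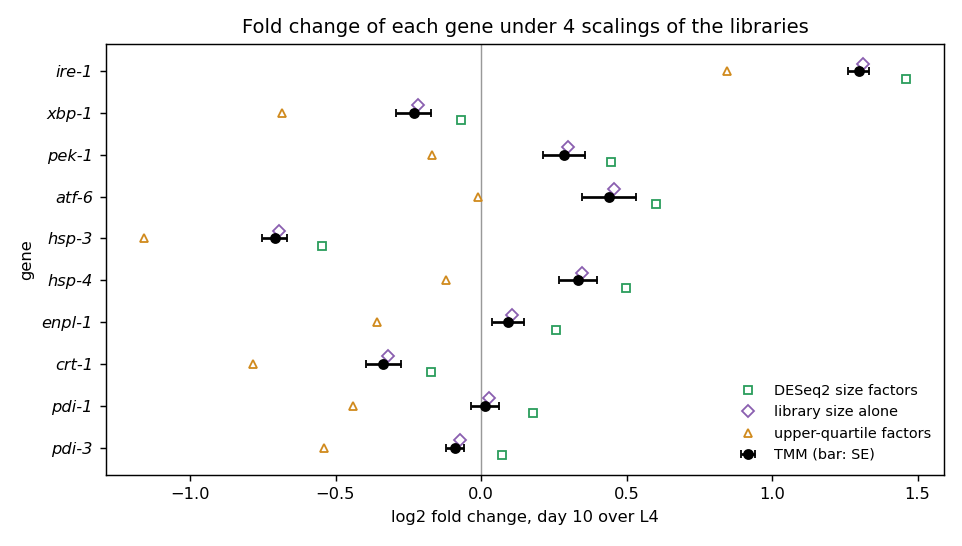
Log2 fold change of each gene, day 10 over L4, under TMM scaling (black, bar: SE) and under 3 other scalings of the libraries. For ire-1 the 4 values are above 0, and for hsp-3, crt-1 and xbp-1 they are below 0; the other 6 genes change sign with the scaling.

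The other signalling genes of the pathway split, with atf-4 far lower. Of 7 tested, 4 rose and 3 fell, with a median log2 fold change of 0.32. The counts were 3 and 3 with upper-quartile factors and 4 and 2 with DESeq2's size factors. Over all genes tested, 40.5% rose and 45.0% fell by edgeR, shares that also stand beside the lists that follow. They were 33.2% and 52.7% with upper-quartile factors, and 43.3% and 42.4% with DESeq2's size factors. The transcription factor gene atf-4, whose protein is made when eIF2 alpha is phosphorylated, fell from 126 ± 5.29 to 22.1 ± 3.34 CPM (mean ± SD, n = 3). Its log2 fold change was −2.52 ± 0.13 (edgeR's adjusted p = 5.91e-08). The ribosome-associated scaffold gene rack-1 fell by 0.75 on the log2 scale, and eif-2alpha, the substrate of PEK-1, by 0.20, a call lost with DESeq2's size factors (−0.037, adjusted p = 0.509). The genes of the other eIF2 alpha kinase and its activator, gcn-2 and gcn-1, rose by 0.75 and 0.32, although gcn-1 was at −0.13 with upper-quartile factors. The RNA ligase gene rtcb-1, whose product rejoins the xbp-1 message, rose from 25.6 ± 0.32 to 48.3 ± 3.63 CPM, and the choline kinase gene ckb-2 by 1.61 ± 0.15 on the log2 scale.

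Of 18 ERAD genes, 16 rose and 0 fell by edgeR, while 12 rose and 2, cdc-48.2 and png-1, fell with upper-quartile factors. By edgeR 88.9% of the list was called, where 85.4% of all genes tested were, 40.5% as higher and 45.0% as lower. All 18 log2 fold changes were above 0 under TMM scaling, with a median of 0.77, so 0 were lower at an unadjusted p under 0.05, and 0 fell by DESeq2's test. The adaptor gene sel-1 rose from 117 ± 0.94 to 244 ± 9.90 CPM, a log2 fold change of 1.06 ± 0.03. The ubiquitin ligase gene sel-11, the homologue of HRD1, rose by 0.75 ± 0.08, and cup-2, a derlin of the ER membrane, by 0.47 ± 0.06, a call lost with upper-quartile factors (0.014, adjusted p = 0.821). Of the pair of genes for the extracting ATPase CDC-48, cdc-48.1 rose from 547 ± 19.4 to 899 ± 109 CPM, while cdc-48.2 stood at 479 ± 4.93 and 489 ± 38.3 CPM and did not pass the test (edgeR's adjusted p = 0.68). All 18 rose with DESeq2's size factors.

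Of 21 other ER folding genes, 5 rose and 13 fell, or 4 and 16 with upper-quartile factors, with a median log2 fold change of −0.37. Beside the 85.4% of all genes tested, 85.7% of this list was called by edgeR. The most abundant, pdi-2, a protein disulfide isomerase that is also a subunit of collagen prolyl hydroxylase, fell from 3011 ± 132 to 744.7 ± 48.4 CPM, a log2 fold change of −2.02 ± 0.07. The cyclophilin gene cyn-5 fell from 944 ± 14.1 to 388 ± 6.72 CPM. With cyn-6 and the FK506-binding protein genes fkb-3, fkb-4, fkb-5 and fkb-7 it made up 6 prolyl isomerase genes of the list, all of which fell, with log2 fold changes of −5.06 to −1.28; these were singled out after their values were seen. The J-domain genes dnj-7 and dnj-27 fell by 0.26 and 0.37 on the log2 scale; with DESeq2's size factors these were −0.10, no longer past the threshold (adjusted p = 0.126), and −0.20. The calnexin gene cnx-1 rose from 214 ± 2.36 to 311 ± 8.22 CPM, a call lost with upper-quartile factors (0.087, adjusted p = 0.141). The gene ero-1, for the oxidase that recharges disulfide isomerases, rose from 82.2 ± 0.97 to 130.2 ± 8.78 CPM. Neither pdi-6 (−0.13), manf-1 (−0.074), a secreted ER stress factor, nor uggt-1 (0.071), the glucosyltransferase of the calnexin cycle, passed the test; all 3 were lower with upper-quartile factors, and uggt-1 was higher with DESeq2's size factors (0.23, adjusted p = 0.00909).

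The translocation and glycosylation list was divided by complex. Of 19 genes, 9 rose and 9 fell, with a median of −0.027 on the log2 scale. Beside the 85.4% of all genes tested, 94.7% of this list was called by edgeR. The channel subunit gene sec-61.A fell from 1266 ± 51.0 to 599 ± 83.7 CPM. All 3 genes of the Sec61 channel and all 4 of the translocon-associated TRAP complex fell, by log2 fold changes of −1.08 to −0.63 and −2.06 to −0.97. All 5 oligosaccharyltransferase genes of the list rose, by 0.14 to 0.33, but each was lower with upper-quartile factors, where the list held 2 higher and 16 lower genes. The complexes were singled out after their values were seen. The catalytic subunit gene stt-3 rose from 481 ± 13.9 to 554 ± 13.4 CPM under TMM scaling.

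Of 12 genes of ER exit in COPII vesicles, 3 rose and 6 fell, or 1 and 9 with upper-quartile factors, with a median log2 fold change of −0.27. Beside the 85.4% of all genes tested, 75% of this list was called by edgeR. The coat gene sec-24.1 fell from 388 ± 15.8 to 232 ± 27.4 CPM and the GTPase gene rab-1 from 368 ± 10.3 to 283 ± 8.82 CPM. Of 7 HSP70 and HSP90 genes outside the ER, 6 rose and 0 fell, or 4 and 1 with upper-quartile factors, with a median of 0.90. Beside the 85.4% of all genes tested, 85.7% of this list was called by edgeR. The genes hsp-70, F44E5.4 and F44E5.5 rose by 3.95, 3.83 and 4.08 on the log2 scale. Their L4 means were low, at 1.81, 0.23 and 0.22 FPKM. At 0.48 and 0.45 CPM in L4, F44E5.4 and F44E5.5 could pass the filter on low counts through the day 10 libraries alone. Their day 10 means were 6.83 and 7.62 CPM. A gene that enters in that way can hardly be called lower, so their rises carry little weight in the count of 6 and the median. The day 10 libraries of hsp-70 were at 51.9, 15.9 and 16.4 FPKM. None of the 7 genes was lower by DESeq2's test or at an unadjusted p under 0.05 in edgeR. Among them hsp-90 rose from 1859 ± 31.7 to 3459 ± 39.6 CPM, while the mitochondrial hsp-6 stood at 905 ± 12.9 and 867 ± 106 CPM and did not pass the test (edgeR's adjusted p = 0.521), but passed as lower with upper-quartile factors (−0.51).

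**Figure D4:**
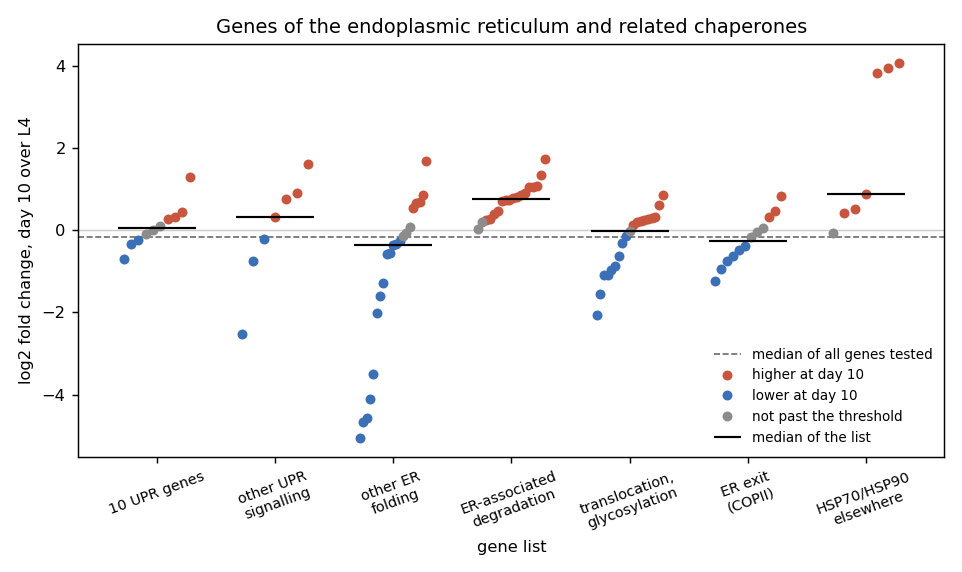
Log2 fold change, day 10 over L4, of each tested gene in 7 lists, coloured by edgeR's call at an adjusted p of 0.05, with the median of each list in black and the median of all genes dashed. The ERAD points lie above 0 under TMM scaling, the folding list runs down to −5.06, and the 10 unfolded protein response genes lie between −0.71 and 1.30.

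Genes with the profile most like those of hsp-4 and xbp-1 were sought among 8513 others with at least 10 CPM on average. Likeness was the root mean square difference of centred log2 CPM over the 6 libraries, which fall into just the ages compared here. Nearest to hsp-4 were tufm-2, clic-1, which encodes the clathrin light chain, and F25H9.7, at differences of 0.035, 0.042 and 0.042. Nearest to xbp-1 was dnj-7, the homologue of the ER co-chaperone P58IPK, at 0.033, followed by T20F10.2 at 0.033 and F59F4.3 at 0.035.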

How the data were processed

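The deposited raw read counts per gene came, per the submitters' processing notes, from a workflow naming CASAVA 1.8, HISAT2 and HTSeq; the genome build, gene models and strand setting are not given in the sources used here. The deposited FPKM values equal these counts divided by 1 length per gene and the library total. The authors' deposited comparison gives mean scaled counts (a signal per age), p-values and adjusted p-values.

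Symbols and WBcel235 coordinates came from Ensembl release 115 by identifier. Counts were tested, day 10 against L4, with edgeR 4.0.16 in R 4.3.3: TMM scaling, filterByExpr, a robust quasi-likelihood fit, p adjusted over all 15956 genes. CPM are TMM-scaled. The SE of a log2 fold change comes from log2(CPM + 0.5) within ages. Ratios used exact permutation (scipy 1.17.1). The edgeR steps were tested on simulated counts in which few genes differed, up or down at random. In these data most genes differ, so that test does not bear on the choice of scaling. DESeq2 1.42.0 was an alternative.

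The 10 genes and all lists were chosen with earlier results of these data known. Named by rule were the 10 genes, the 2 most abundant of each list, 15 fixed genes and the nearest genes in profile. Outside that rule were the rest of the 7 other signalling genes, and png-1, for its call with upper-quartile factors. So were hsp-70, F44E5.4 and F44E5.5, for their low level at L4, and others marked as chosen after their values were seen. Listed names without a match were gadd-34, R151.7 and opt-2.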

Additional observations from a re-analysis of the deposited data

How the results depend on the processing

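Over 13 alternatives (3 other scalings, 2 filters, DESeq2's test, the replicate block and each library left out) ire-1, hsp-3 and crt-1 kept their direction and call. With upper-quartile factors the log2 fold changes of hsp-4, pek-1, atf-6, enpl-1 and pdi-1 were −0.12, −0.17, −0.0096, −0.36 and −0.44, pdi-3 passed at −0.54, and 1 of the 10 genes rose and 7 fell. With these factors 2 ERAD genes fell, 2 translocation and glycosylation genes rose and 16 fell, 1 ER exit gene rose, and 1 HSP70 or HSP90 gene outside the ER fell. These factors lower the median of all genes to −0.62, and with them 33.2% of all genes tested rose and 52.7% fell. DESeq2's size factors and DESeq2's test gave −0.069 for xbp-1, no longer past the threshold, 0.26 for enpl-1 and 0.18 for pdi-1, both now past it, and 0.073 for pdi-3. For pdi-1 no filter gave −0.020 and at least 1 CPM in 3 libraries −0.0076. Leaving out each library gave −0.27 to −0.17 for xbp-1, 0.053 to 0.15 for enpl-1, −0.018 to 0.078 for pdi-1 and −0.11 to −0.053 for pdi-3. For the other 6 genes it changed no call. Leaving out a library moved the log2 difference of the hsp-4 to hsp-3 ratio within 0.95 to 1.09 and that of BiP to hsp-1 within −0.89 to −0.79, where the smallest possible exact p is 0.20; read counts in place of FPKM gave 1.04 and −0.86.

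The replicate numbers were not shown to pair the samples: deviations of same-numbered libraries correlated at 0.019 to 0.020, each library doing so best with its own number. With the replicate number as a block, 4 of the 10 genes rose and 3 fell, 6355 of all genes rose and 7042 fell, and sign flips of the pairs gave an exact p of 0.25 for both ratios. Day 10 replicate 3 was the farthest from the others of its age.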
